A study of Mus musculus with 12 samples.

Results

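The interferon-stimulated genes described here were 37 named mouse genes of the interferon response, all 37 of which were listed among the 14195 genes of the protein-coding expression table. They were chosen by name, as 29 genes of the kind induced by type I interferon (type I-like genes, such as Ifit1, Isg15 and Oas1a) and 8 interferon-inducible GTPase genes of the Irg and Gbp families. The choice was made with earlier results of these data known, so the shares below only describe the list. For the same reason no p-value over the list is given. The livers of 12 mice in which fibrosis had been induced with carbon tetrachloride (CCl4) were profiled by strand-specific RNA-seq of ribosomal RNA-depleted libraries. The PZH group of 6 mice received Pien Tze Huang (PZH), a traditional Chinese medicine, by gavage each day at 0.25 mg per g of body weight, and the control group of 6 mice received double-distilled water in its place. Both groups received 2 intraperitoneal injections of CCl4 in corn oil per week (10 µl of the mixture per g), and the livers were taken in week 8. The strain is labelled C57BL/8, whereas the methods of the study name male C57BL/6J mice that were 6 weeks old at the start. No mouse without CCl4 was among the 12 libraries, so the level of these genes in an uninjured liver was not analysed here.

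Interferons bind receptors on the cell surface, whose Jak kinases phosphorylate Stat proteins. Type I interferon acts mainly through ISGF3, a complex that includes Stat2 and Irf9 and binds the interferon-stimulated response element (ISRE) in promoters, while interferon gamma acts mainly through the gamma-activated site (GAS). The products of the induced genes sense viral RNA, block its translation or replication, modify proteins with Isg15, or, in the case of the GTPases, attack the vacuoles of intracellular pathogens. In the liver, hepatocytes, Kupffer cells, recruited monocytes and endothelial cells can all carry such a response.

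The liver values of most of these genes were lower in PZH mice. Of the 37 genes, 23 (62.2%) were called lower in PZH mice at a limma Benjamini-Hochberg adjusted p below 0.05, and the background is large, since 32.1% of all genes tested were called lower. None of the 37 was called higher, either at the adjusted or at an unadjusted p below 0.05, whereas 12.7% of all genes tested were called higher. The median log2 fold change (PZH minus control, on log2(FPKM + 1), where FPKM is the number of read fragments scaled to transcript length and library size) was −0.54 over the 37 genes, −0.56 over the type I-like genes and −0.51 over the GTPases. Over all genes it was −0.11, and 34 of the 37 lay below that value. With a median-ratio scale factor, which brought the median of all genes to 0.00, 16 of the 37 were called lower and 0 higher, beside 19.3% and 19.8% of all genes, and the median of the 37 was −0.39. With the FPKM of each mouse scaled to an equal sum, 29 were called lower (34.1% of all genes) and 0 higher (11.1% of all genes).

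One control mouse, number 4, had high values across these genes. It was the highest control in 35 of the 37 genes, beside 20.1% of all genes tested, the exceptions being Ddx58 and Irf7. Without it, 20 of the 37 were called lower (29.2% of all genes) and the median was −0.38. With the scale factor and without control 4 together, 14 were called lower (17.6% of all genes), 1 (Irf1) was called higher (18.1% of all genes), and the median was −0.22. These livers are bulk tissue, so fewer cells of a type and less RNA per cell cannot be told apart.

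**Figure D1:**
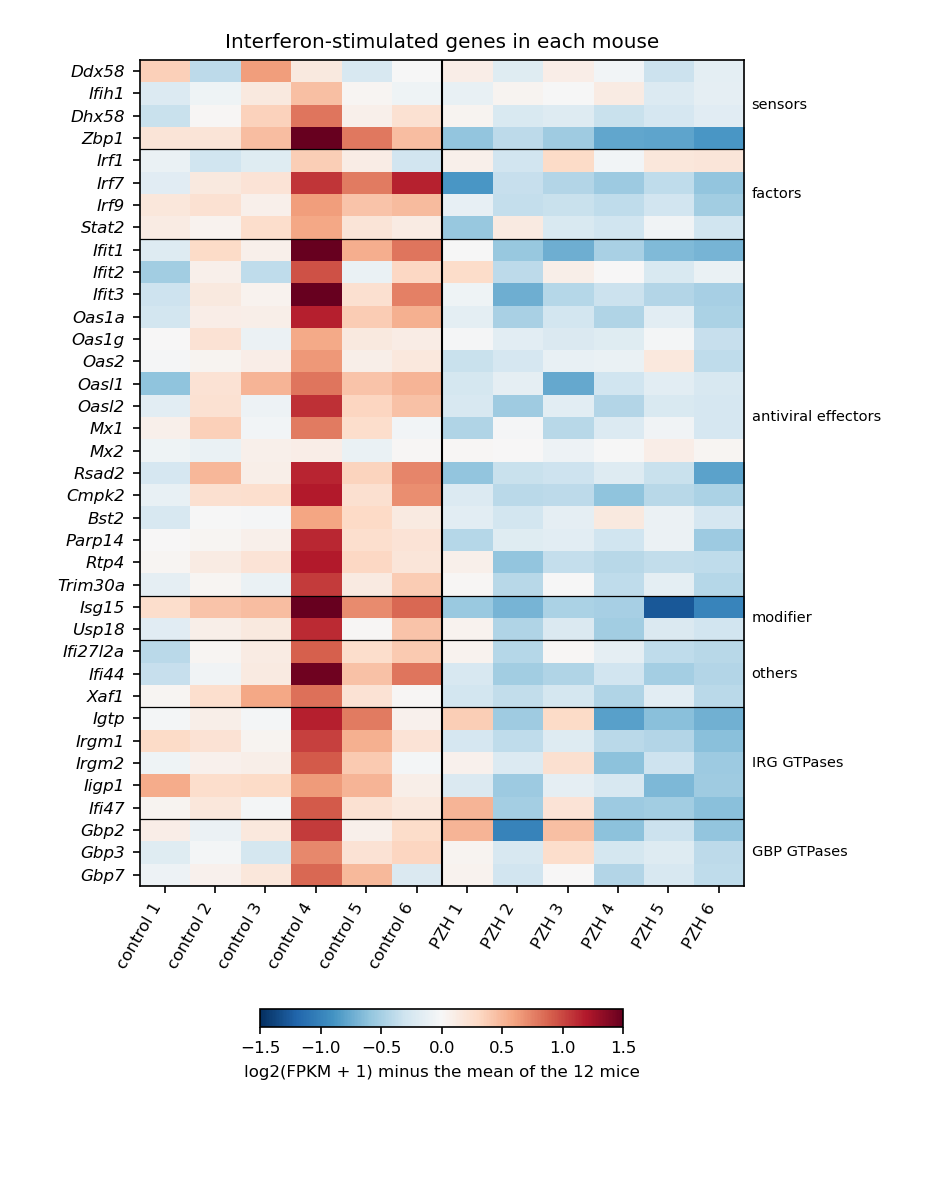
Each row is a gene and each column a mouse, and the colour is log2(FPKM + 1) minus the mean of the 12 mice, with rows grouped by role and values beyond the scale drawn in its end colours. The 6 PZH columns are mostly blue, control 4 is the darkest red column, and the GTPase rows at the foot, other than Irgm1 and Iigp1, turn pale or red in PZH 1 and PZH 3.

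The promoters of a part of these genes hold the binding sequences named above, and a few are shown so that the members can be seen beside their values. A RefSeq promoter window (GRCm38.p6, the build of the deposited values) was found for 27 of the 37 genes. Dhx58, Zbp1, Oas2, Mx1, Mx2, Parp14, Rtp4, Usp18, Ifi27l2a and Iigp1 had none in the table, so a share over the whole list is void. In the 250 bases before the start site, the ISRE core GAAANNGAAA was found on either strand in 15 of the 27 genes, and in 3.46% of the 27025 genes of the promoter table. The GAS core TTCNNNGAA was found in 7 of the 27, and in 8.13% of the genes of that table. The 2 motifs can overlap, as they do in Bst2. The windows below are 60 bases each, 5′ to 3′ on the strand of the gene, with every match to either core in capitals (TTTCNNTTTC is the ISRE core on the other strand). They were picked to show 2 strongly lower genes (Isg15, Ifit1), a near-identical pair (Oas1a and Oas1g), an effector (Ifit3), 3 GTPases (Irgm1, Igtp, Gbp7) and a gene with matches that was not called (Bst2). Like Bst2, Igtp was not called.
Isg15, chr4:156200856-156200915, minus strand: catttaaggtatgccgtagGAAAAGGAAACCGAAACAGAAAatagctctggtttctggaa
Ifit1, chr19:34640769-34640828, plus strand: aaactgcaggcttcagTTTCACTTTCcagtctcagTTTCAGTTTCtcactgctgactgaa
Ifit3, chr19:34583365-34583424, plus strand: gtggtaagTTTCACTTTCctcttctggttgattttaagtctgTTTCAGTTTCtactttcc
Oas1a, chr5:120907526-120907585, minus strand: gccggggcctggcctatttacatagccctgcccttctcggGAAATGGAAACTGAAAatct
Oas1g, chr5:120887614-120887673, minus strand: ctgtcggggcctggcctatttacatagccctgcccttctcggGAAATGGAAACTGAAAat
Irgm1, chr11:48871421-48871480, minus strand: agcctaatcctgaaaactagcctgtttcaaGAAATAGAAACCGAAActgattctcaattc
Igtp, chr11:58199491-58199550, plus strand: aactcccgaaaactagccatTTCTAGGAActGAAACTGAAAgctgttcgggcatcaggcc
Gbp7, chr3:142530241-142530300, plus strand: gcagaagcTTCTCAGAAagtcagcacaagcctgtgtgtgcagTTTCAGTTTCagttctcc
Bst2, chr8:71537568-71537627, minus strand: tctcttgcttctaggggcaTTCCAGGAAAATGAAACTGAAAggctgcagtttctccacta
Isg15 carries 3 overlapping ISRE cores, which begin 78, 72 and 66 bases before the start, and Ifit1 carries 2, at 104 and 85 bases. Oas1a and Oas1g carry the same run of 2 overlapping cores, Irgm1 carries 2, and Igtp and Gbp7 each hold both an ISRE and a GAS core. A match is a description of the letters and does not show that a factor was bound. Among the 23 genes called lower, 16 had a window and 9 of these an ISRE core, and among the 14 others 11 had a window and 6 an ISRE core. A GAS core was found in 2 of the 16 and in 5 of the 11. By class, an ISRE core was found in 9 of the 20 type I-like genes with a window and in 6 of the 7 GTPases with one. A GAS core was found in 4 of the 20 and in 3 of the 7. These sets are small, and the differences between them were not tested.

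Isg15, the ubiquitin-like protein that is joined to other proteins during the response, showed the largest decrease of the 37. It lies on chromosome 4 (chr4:156199424-156200818, minus strand) and has 1 listed transcript. Its level ranged from 1.45 to 3.25 FPKM in PZH mice (median 2.83) and from 6.09 to 19.5 FPKM in control mice (median 7.89), so the groups did not overlap. The mean was 2.58 ± 0.73 FPKM in PZH mice and 9.68 ± 4.99 FPKM in control mice (SD, n = 6 each), a ratio of 3.75. The log2 fold change was −1.502 with an SE of 0.23 (limma adjusted p = 0.000265), and the exact permutation test over the labels of the 12 mice gave p = 0.0022, the smallest p it can give. Without control 4 the highest control value was 9.78 FPKM and the limma adjusted p was 0.000127. Usp18, the protease that removes Isg15 and also dampens the type I receptor, changed less. It ranged from 6.41 to 10.03 FPKM in PZH mice (median 7.92) and from 8.47 to 22.0 FPKM in control mice (median 10.5), with overlap, and its log2 fold change of −0.54 (limma adjusted p = 0.0290) was not called with the scale factor (adjusted p = 0.133).

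**Figure D2:**
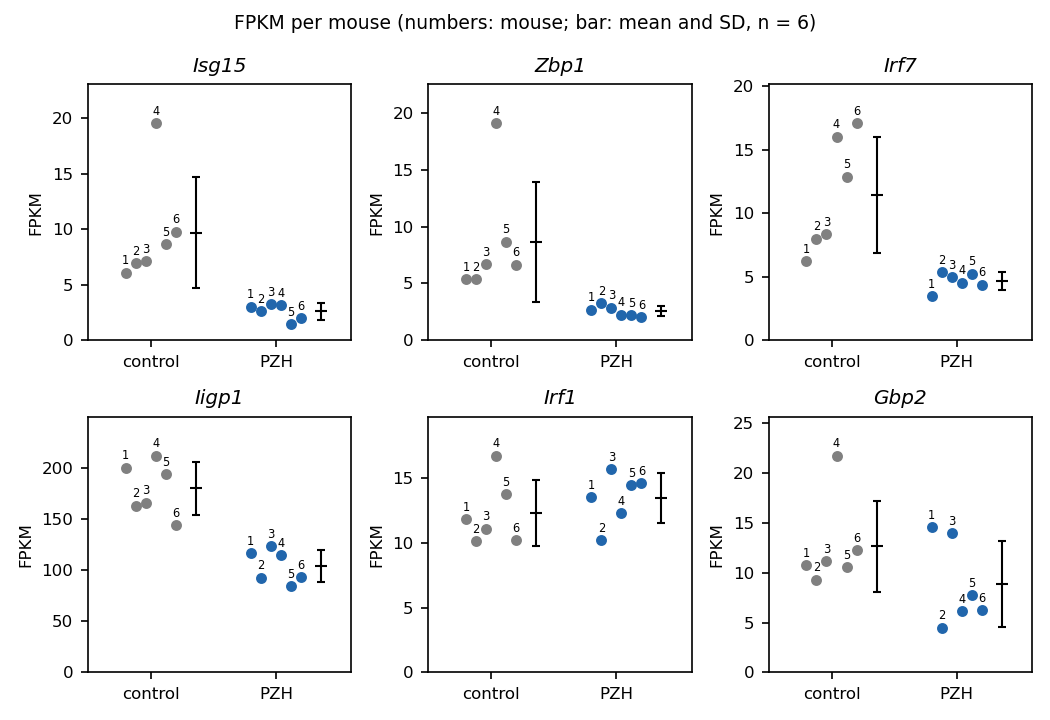
FPKM on the vertical axis for 6 genes, with 1 numbered point per mouse and the mean and SD of the 6 mice of each group as a bar. Isg15, Zbp1, Irf7 and Iigp1 do not overlap between the groups, while Irf1 overlaps throughout and Gbp2 has PZH 1 and PZH 3 among the control values.

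The transcription factors of the response differed among themselves. Irf7, which drives the amplification of the type I response, ranged from 3.44 to 5.36 FPKM in PZH mice (median 4.75) and from 6.21 to 17.1 FPKM in control mice (median 10.6). Its log2 fold change was −1.06 ± 0.21 (SE, limma adjusted p = 0.00141), a ratio of means of 2.45, with no overlap. Irf9, the DNA-binding subunit of ISGF3, varied little within each group. It ranged from 5.48 to 7.49 FPKM in PZH mice (median 6.31) and from 8.73 to 13.3 FPKM in control mice (median 10.7), again with no overlap (log2 fold change −0.67 ± 0.10, limma adjusted p = 0.000188). Stat2, the transactivating subunit of ISGF3, ranged from 6.72 to 11.6 FPKM in PZH mice (median 8.59) and from 10.9 to 16.2 FPKM in control mice (median 11.8). Only PZH 2 reached into the control range, and the log2 fold change was −0.44 (limma adjusted p = 0.00889), with an adjusted p of 0.0499 under the scale factor. Irf1, which is strongly induced by interferon gamma, stood apart from these 3 factors. It ranged from 10.2 to 15.7 FPKM in PZH mice (median 13.96) and from 10.1 to 16.7 FPKM in control mice (median 11.5), with full overlap (log2 fold change 0.13, limma adjusted p = 0.433). The exons of Irf9 overlap those of Rnf31 on the same strand, so reads of the 2 genes could be shared between them, and Irf7 overlaps Phrf1 on the opposite strand.

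Among the nucleic acid sensors, 1 of 4 was called lower, beside 32.1% of all genes, and so few genes cannot be told apart from that share. Zbp1, a sensor of Z-form nucleic acids that can trigger necroptosis, ranged from 2.05 to 3.25 FPKM in PZH mice (median 2.48) and from 5.37 to 19.1 FPKM in control mice (median 6.69). There was no overlap, the ratio of means was 3.38 and the log2 fold change was −1.32 ± 0.24 (SE, limma adjusted p = 0.000701). The other sensors bind viral double-stranded RNA in the cytosol, and none of them was called. Ddx58 (RIG-I) ranged from 4.21 to 5.98 FPKM in PZH mice (median 5.11) and from 3.95 to 9.02 FPKM in control mice (median 5.85). Ifih1 (MDA5) ranged from 8.19 to 10.5 FPKM in PZH mice (median 9.18) and from 8.20 to 13.5 FPKM in control mice (median 9.45). Their log2 fold changes of −0.16 and −0.10 became 0.00 and 0.08 with the scale factor, so neither had a direction that held across scalings. Dhx58 (LGP2), the regulator of both, lay in between at −0.38 (limma adjusted p = 0.0542), with medians of 2.81 FPKM in PZH mice and 3.91 FPKM in control mice.

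The antiviral effectors were the largest role group, and 12 of its 16 genes were called lower, beside 32.1% of all genes. With the scale factor 7 of the 16 were called lower (19.3% of all genes), and without control 4 as well 6 were (17.6%). The Ifit genes lie side by side on chromosome 19 and encode proteins that bind foreign RNA. Ifit1 ranged from 2.17 to 4.25 FPKM in PZH mice (median 2.44) and from 3.60 to 15.5 FPKM in control mice (median 6.07). Only PZH 1 reached into the control range of Ifit1, and the log2 fold change was −1.05 ± 0.26 (SE, limma adjusted p = 0.00503). Ifit3 ranged from 4.05 to 7.05 FPKM in PZH mice (median 5.22) and from 5.75 to 24.5 FPKM in control mice (median 8.62), with a log2 fold change of −0.83 (limma adjusted p = 0.0202, and 0.0619 with the scale factor). Ifit2, which lies beside Ifit3 on the chromosome, was not called. Its ranges of 2.33 to 4.30 FPKM in PZH mice (median 3.24) and 2.06 to 7.46 FPKM in control mice (median 3.34) overlapped throughout, and its log2 fold change of −0.12 turned positive with the scale factor and without control 4.

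Rsad2 (viperin), which makes a chain-terminating nucleotide, and Cmpk2, a nucleotide kinase, are neighbours on chromosome 12 that are transcribed away from each other. Both were called lower. Rsad2 ranged from 1.72 to 3.16 FPKM in PZH mice (median 2.77) and from 2.97 to 9.46 FPKM in control mice (median 5.34), which gave a change of −0.85 on the log2 scale with an SE of 0.20 (limma adjusted p = 0.00400). Cmpk2 ranged from 0.924 to 1.54 FPKM in PZH mice (median 1.20) and from 1.70 to 5.67 FPKM in control mice (median 2.48), with no overlap (log2 fold change −0.83 ± 0.18, limma adjusted p = 0.00205).

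All 5 genes of the oligoadenylate synthetase family on chromosome 5 that belong to the list were called lower, beside 32.1% of all genes. With the scale factor 3 of the 5 calls were lost, and 19.3% of all genes were called lower. Enzymes of this family make the messenger that activates RNase L, while Oasl1 is a related protein without that activity. Oas1a ranged from 2.75 to 3.74 FPKM in PZH mice (median 3.06) and from 3.31 to 10.7 FPKM in control mice (median 5.20), a log2 fold change of −0.66 (limma adjusted p = 0.0135). Oasl2 ranged from 2.49 to 3.56 FPKM in PZH mice (median 3.28) and from 3.55 to 9.81 FPKM in control mice (median 5.13), a log2 fold change of −0.62 (limma adjusted p = 0.0120). Both kept the call with the scale factor. With control 4 left out as well, neither Oas1a (limma adjusted p = 0.0543) nor Oasl2 (limma adjusted p = 0.0512) was called. Oasl1 ranged from 2.85 to 4.99 FPKM in PZH mice (median 4.51) and from 3.30 to 10.5 FPKM in control mice (median 8.05), and its change of −0.62 (limma adjusted p = 0.0226) had an adjusted p of 0.0502 without control 4. Oas1g lay between 0.632 and 1.04 FPKM in PZH mice (median 0.837) and between 0.947 and 2.07 FPKM in control mice (median 1.26). Oas2 lay between 1.23 and 2.24 FPKM in PZH mice (median 1.56) and between 1.87 and 3.56 FPKM in control mice (median 2.1). The log2 fold changes of Oas1g and Oas2 were −0.32 and −0.34 (limma adjusted p = 0.0221 and 0.0348), or −0.561 and −0.498 with a pseudocount of 0.1 in place of 1, since both genes lie near 1 FPKM. Oas1a and Oas1g are close copies, so the split of reads between them is uncertain, and Oasl1 has an antisense partner.

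Of the remaining effectors, Parp14 and Rtp4 were called lower, as was Mx1 at a very low level. Parp14, an ADP-ribosyltransferase, ranged from 7.23 to 10.3 FPKM in PZH mice (median 9.17) and from 10.99 to 25.2 FPKM in control mice (median 12.2). The groups did not overlap, and its log2 fold change was −0.56 (limma adjusted p = 0.0175, and 0.0732 with the scale factor). Rtp4 ranged from 4.28 to 7.41 FPKM in PZH mice (median 5.16) and from 7.12 to 17.2 FPKM in control mice (median 8.15), a log2 fold change of −0.68 (limma adjusted p = 0.00774). Mx1, a dynamin-like antiviral GTPase, ranged from 0.102 to 0.488 FPKM in PZH mice (median 0.287) and from 0.463 to 1.6 FPKM in control mice (median 0.704), a log2 fold change of −0.47 (limma adjusted p = 0.0143). Mx1 and Mx2 were the 2 members with a mean below 1 FPKM. Mx2 lay between 0.0185 and 0.173 FPKM in all 12 mice and was not called.

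Bst2 (tetherin), which holds budding virus particles on the cell surface, was the most abundant of the type I-like genes and was not called. It ranged from 54.8 to 73.4 FPKM in PZH mice (median 60.1) and from 56.1 to 101 FPKM in control mice (median 69.7), a log2 fold change of −0.25 (limma adjusted p = 0.120) that became −0.06 with the scale factor. Trim30a ranged from 4.26 to 6.14 FPKM in PZH mice (median 4.90) and from 5.44 to 13.7 FPKM in control mice (median 6.47), and it also missed the threshold (log2 fold change −0.45, limma adjusted p = 0.0586).

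Xaf1, which binds an inhibitor of apoptosis, and Ifi44 were called lower among the other interferon-induced genes. Xaf1 ranged from 0.669 to 1.05 FPKM in PZH mice (median 0.827) and from 1.31 to 3.03 FPKM in control mice (median 1.68), with no overlap (log2 fold change −0.64 ± 0.13, limma adjusted p = 0.00154). Ifi44 ranged from 1.37 to 1.88 FPKM in PZH mice (median 1.5) and from 1.69 to 8.38 FPKM in control mice (median 3.18), a log2 fold change of −0.82 (limma adjusted p = 0.0147). Ifi27l2a ranged from 11.5 to 16.5 FPKM in PZH mice (median 13.1) and from 11.7 to 30.3 FPKM in control mice (median 18.4), and was not called (log2 fold change −0.43, limma adjusted p = 0.0647).

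**Figure D3:**
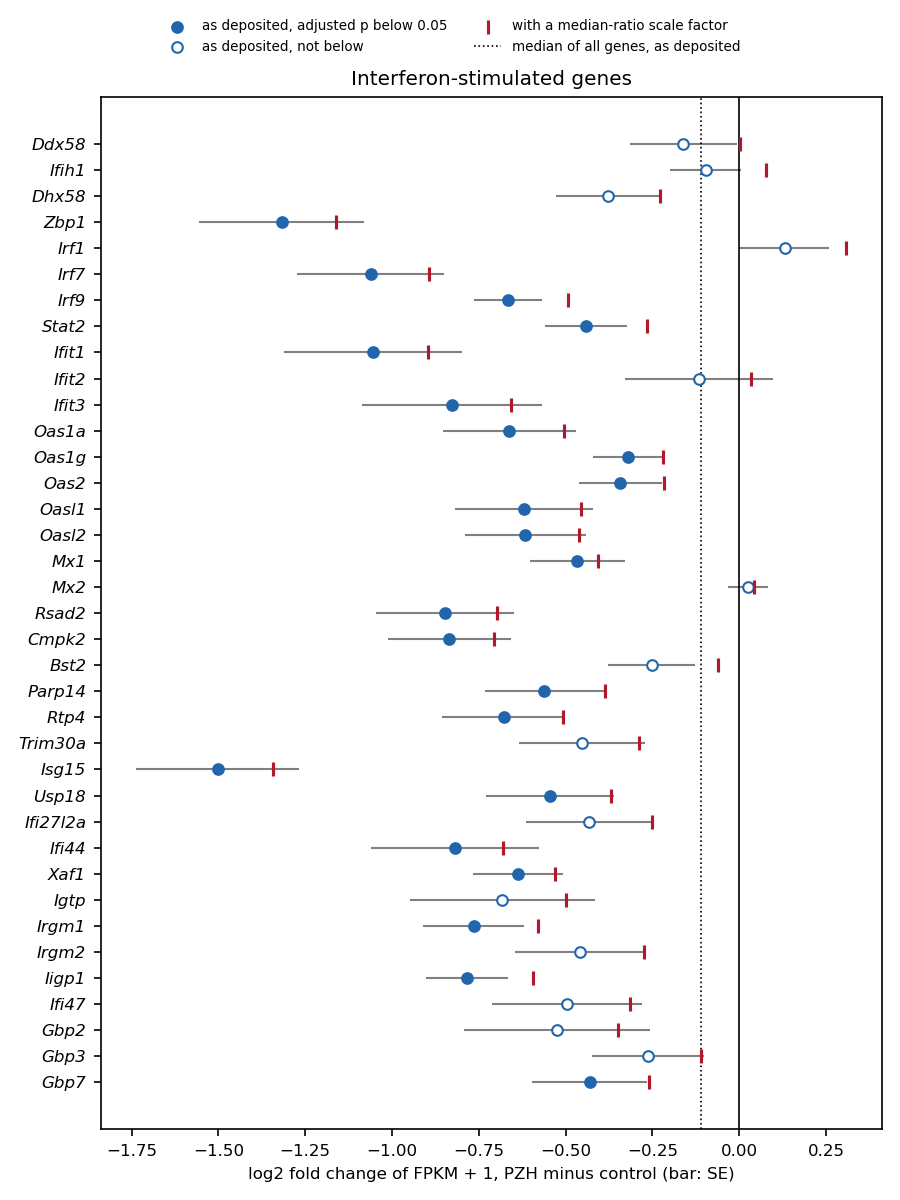
Log2 fold change of FPKM + 1 (PZH minus control) on the horizontal axis for each gene, with its SE as a bar, filled where the limma adjusted p was below 0.05, and with a red tick for the value under the median-ratio scale factor. Of the 37 values as deposited, 35 lie below 0, and each red tick lies to the right of its point.

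The 8 GTPases shared the direction of the type I-like genes, and 3 of them (37.5%) were called lower, which is close to the 32.1% of all genes. Iigp1 was the most abundant of the 37 genes and encodes an effector that coats pathogen vacuoles. It ranged from 84.3 to 123 FPKM in PZH mice (median 104) and from 144 to 212 FPKM in control mice (median 180). The groups did not overlap, and the log2 fold change was −0.78 ± 0.12 (SE, limma adjusted p = 0.000217). Irgm1, a regulator of the other Irg proteins, ranged from 18.9 to 25.8 FPKM in PZH mice (median 22.3) and from 30.5 to 61.5 FPKM in control mice (median 35.4), also without overlap (log2 fold change −0.76 ± 0.15, limma adjusted p = 0.000986). Gbp7 ranged from 5.33 to 7.89 FPKM in PZH mice (median 6.13) and from 6.41 to 14.6 FPKM in control mice (median 8.33). Gbp7 and Gbp3 are close relatives, which leaves the split of reads between them uncertain. The call of Gbp7 was marginal (log2 fold change −0.43, limma adjusted p = 0.0494) and was lost with the scale factor (adjusted p = 0.231) and without control 4 (adjusted p = 0.0867).

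The other 5 GTPases were not called, and 4 of their 5 log2 fold changes lay between −0.46 and −0.68. Igtp, a regulatory Irg protein, ranged from 11.73 to 28.04 FPKM in PZH mice (median 13.98) and from 20.9 to 49.5 FPKM in control mice (median 22.7), with a log2 fold change of −0.68 ± 0.27 (limma adjusted p = 0.0527). Irgm2 ranged from 13.8 to 25.7 FPKM in PZH mice (median 17.98) and from 20.7 to 42.1 FPKM in control mice (median 22.9), a log2 fold change of −0.46 (limma adjusted p = 0.0609). Igtp and Irgm2 share exons on the same strand of chromosome 11, so their values are not independent. Ifi47 ranged from 9.49 to 21.9 FPKM in PZH mice (median 10.3) and from 14.8 to 29.6 FPKM in control mice (median 17.1), a log2 fold change of −0.50 (limma adjusted p = 0.0783). Gbp2 ranged from 4.49 to 14.6 FPKM in PZH mice (median 6.999) and from 9.31 to 21.8 FPKM in control mice (median 10.98), a log2 fold change of −0.52 (limma adjusted p = 0.131). Gbp3 was the smallest change of the family, with medians of 3.25 FPKM in PZH mice and 4.28 FPKM in control mice and a log2 fold change of −0.26 (limma adjusted p = 0.210).

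In Igtp, Irgm2, Ifi47, Gbp2 and Gbp7 the PZH group was split, with PZH 1 and PZH 3 within the control range and the other 4 PZH mice below all control mice. The type I-like gene Trim30a showed the same split. This split was noticed after the values were seen, and in Gbp3 only 1 PZH mouse was below all control mice. Gbp2 was at 14.6 FPKM in PZH 1 and 14.01 FPKM in PZH 3, and at 4.49 to 7.75 FPKM in the other 4. Igtp was at 28.04 and 26.3 FPKM in the same 2 mice, and at 11.73 to 14.5 FPKM in the other 4. PZH 1 and PZH 3 were the 2 highest PZH mice in all 8 GTPases, in 6 of the 29 type I-like genes and in 6.04% of all genes tested. On the log2 scale, PZH 1 and PZH 3 each lay 0.41 above the PZH mean over the 8 GTPases, but only 0.09 and 0.04 above it over the type I-like genes.

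**Figure D4:**
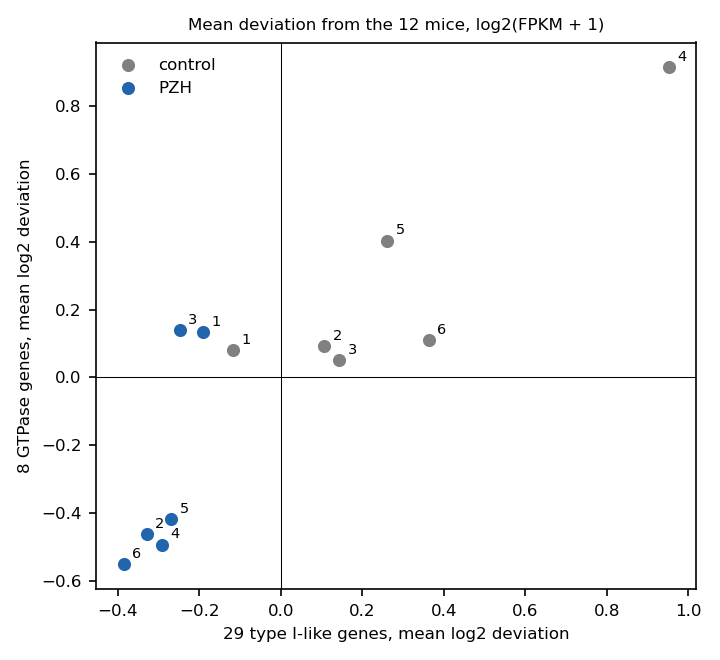
Mean log2(FPKM + 1) of each mouse minus the mean of the 12 mice, over the 29 type I-like genes (horizontal) and the 8 GTPases (vertical), with the mouse number beside each point. PZH 1 and PZH 3 lie with the other PZH mice on the horizontal axis and with the controls on the vertical one, and control 4 lies at the upper right at 0.95 and 0.91.

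Control 4 was high in both classes. It lay above the mean of the control mice in 37 of 37 genes, by 0.67 on the log2 scale over the type I-like genes and by 0.64 over the GTPases, whereas its median deviation over all genes was 0.01. Control 1 was the opposite for the type I-like genes, at 0.40 below the control mean, and its mean over them lay above those of all 6 PZH mice. In 9 of the 37 genes (Irf9, Iigp1, Isg15, Zbp1, Irgm1, Irf7, Xaf1, Cmpk2 and Parp14), every PZH mouse was below every control mouse, control 1 included, beside 17.9% of all genes tested, and in 0 of the 37 was every PZH mouse above every control mouse, beside 6.46%. The criteria of the study (a 2-fold change and an unadjusted p below 0.05) were applied here to gene values and the limma p. By them, 4 of the 37 were lower (Isg15, Zbp1, Irf7 and Ifit1), beside 2.50% of all genes, and 0 were higher, beside 1.51%. The study applied its criteria to single transcripts, so these shares are not those of the study.

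The genes upstream of the 37 were followed in a list of ligands, receptors, kinases, regulators and sensors, of which 37 were analysed. Of these, 18 were called lower (32.1% of all genes) and 1 higher (12.7%), and with the scale factor 14 were called lower (19.3%) and 3 higher (19.8%). Ifnk was the only interferon gene of the list that was analysed, at 1.66 to 2.81 FPKM in PZH mice and 1.83 to 2.49 FPKM in control mice, and it was not called. Among the receptors, Ifnar1, a subunit of the type I receptor, ranged from 10.5 to 14.9 FPKM in PZH mice (median 11.9) and from 15.7 to 19.6 FPKM in control mice (median 17.3), without overlap (log2 fold change −0.49, limma adjusted p = 0.000525). Ifngr2, a subunit of the interferon gamma receptor, fell by 0.60 on the log2 scale (limma adjusted p = 7.17e-05), and its partner Ifngr1 was not called (log2 fold change −0.28, limma adjusted p = 0.350). The 3 receptor kinases Jak1, Jak2 and Tyk2 were all called lower (32.1% of all genes), at −0.52, −0.46 and −0.58. In each, every PZH value lay below every control value, as in 17.9% of all genes.

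Feedback inhibitors and adaptors were among the larger changes of that list. Socs3, an inhibitor of cytokine signalling that is also induced by interleukin 6, ranged from 1.49 to 7.50 FPKM in PZH mice (median 3.01) and from 4.09 to 14.7 FPKM in control mice (median 8.33), a log2 fold change of −1.04 (limma adjusted p = 0.0222). Socs1, the interferon-induced inhibitor, was at or below 0.25 FPKM in all 12 mice and was not called (log2 fold change −0.07). Ikbke, a kinase that activates Irf3 and Irf7, ranged from 9.38 to 12.1 FPKM in PZH mice (median 9.89) and from 19.1 to 23.9 FPKM in control mice (median 21.2), without overlap (log2 fold change −1.01 ± 0.07, limma adjusted p = 6.60e-06). Ptpn1, a phosphatase that acts on Jak kinases, fell by 0.89 on the log2 scale, the Toll-like receptor adaptor Myd88 by 0.79, Tmem173 (Sting, an adaptor of cytosolic DNA sensing) by 0.73, Nlrc5 (an activator of class I antigen presentation genes) by 0.66 and the signalling adaptor Traf3 by 0.65, all with a limma adjusted p below 0.05. Ciita, the activator of class II antigen presentation genes, was the 1 gene of the list called higher, at 1.77 to 3.83 FPKM in PZH mice (median 2.23) and 1.09 to 1.94 FPKM in control mice (median 1.34). Its log2 fold change was 0.53 (limma adjusted p = 0.00752).

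**Figure D5:**
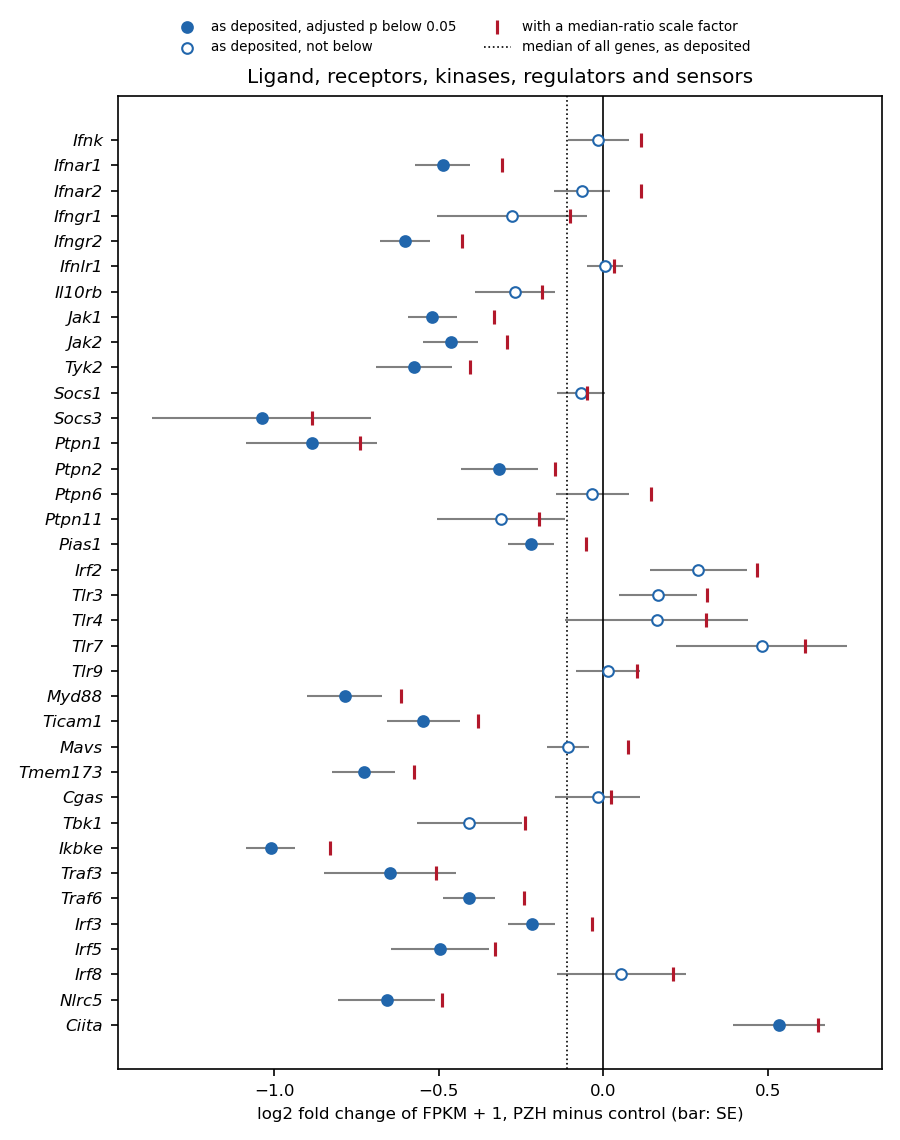
Log2 fold change of FPKM + 1 (PZH minus control) on the horizontal axis for ligand, receptor, kinase, regulator and sensor genes of that list, with its SE as a bar, filled where the limma adjusted p was below 0.05, and with a red tick for the value under the median-ratio scale factor. Ikbke lies at −1.01 with an SE of 0.07, and Ciita is the only filled point to the right of 0.

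A further 67 interferon-inducible genes outside the 37 were analysed, and 28 of them were called lower and 2 higher, beside 32.1% and 12.7% of all genes. With the scale factor these counts became 14 and 3, beside 19.3% and 19.8% of all genes. Control 4 was the highest control in 55 of the 67. The largest decreases called were those of Gvin1, a very large interferon-inducible GTPase (log2 fold change −1.23), Ifi205 (−0.99), Ifitm1 (−0.91), Isg20 (−0.88), Slfn2 (−0.84), Ms4a4c (−0.80), Ifit3b (−0.76) and Rnf213 (−0.75). In each of these 8 genes the PZH and control values did not overlap. Every PZH value lay below every control value in 19 of the 67, beside 17.9% of all genes. Ifit3b is a close copy of Ifit3, so the split of reads between the 2 is uncertain. Isg20, an exonuclease of viral RNA, ranged from 1.68 to 2.67 FPKM in PZH mice (median 1.94) and from 4.004 to 5.14 FPKM in control mice (median 4.77), and its highest control was mouse 2. Lgals9 and Gbp8 were the 2 genes called higher, at 0.24 and 0.20 on the log2 scale.

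Markers of the cells that could carry the response did not move together. The counts called in this paragraph and the next stand beside 32.1% of all genes called lower and 12.7% called higher. With the scale factor these shares were 19.3% and 19.8%. Over 7 hepatocyte markers the summed level was 42516 to 58708 FPKM in PZH mice and 25789 to 39202 FPKM in control mice, with control 4 the lowest mouse, and 2 markers were called lower and 3 higher (1 and 4 with the scale factor). Over 10 Kupffer cell markers the sum was 350 to 508 FPKM in PZH mice and 347 to 448 FPKM in control mice. Of these markers Clec4f, Vsig4 and Csf1r were called higher, and Marco, a scavenger receptor, was called lower (log2 fold change −2.21, limma adjusted p = 0.000703), and with the scale factor 7 of the 10 were called higher and 1 lower. The sum over 9 monocyte-derived macrophage markers was 302 to 538 FPKM in PZH mice and 294 to 480 FPKM in control mice, with 3 markers called lower and 2 higher (0 and 2 with the scale factor) and control 4 the highest control. The 10 T and NK cell markers were all below 1 FPKM on average and 0 of them were called by limma (also 0 at an unadjusted p below 0.05). Their sum was 2.39 to 4.96 FPKM in PZH mice and 3.12 to 5.39 FPKM in control mice. The highest control in that sum was control 4, and PZH 3 and PZH 1 had 4.96 and 4.60 FPKM beside a PZH median of 3.02.

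Neutrophil markers (6 genes, 1 called lower with and without the scale factor) summed to 13.2 to 141 FPKM in PZH mice (median 19.3), with PZH 3 the highest, and to 18.4 to 62.6 FPKM in control mice, with control 4 the highest. Plasmacytoid dendritic cell markers, of a main source of type I interferon, summed to 7.09 to 9.43 FPKM in PZH mice and 7.99 to 10.2 FPKM in control mice, with the defining marker Siglech below 1 FPKM on average. Of the 5 markers 1 was called lower, and 0 with the scale factor. The sums were 4.96 to 8.70 FPKM in PZH mice and 3.68 to 6.98 FPKM in control mice for 5 B and plasma cell markers (0 called by limma, 1 higher at an unadjusted p below 0.05, and 3 called higher with the scale factor). They were 77.1 to 99.9 and 88.2 to 101 FPKM for 6 endothelial markers (2 lower, and 1 lower and 1 higher with the scale factor), and 123 to 210 and 92.4 to 162 FPKM for 8 stellate cell markers (2 lower and 2 higher, and 2 and 4 with the scale factor). For 4 cholangiocyte markers they were 5.40 to 7.595 and 11.9 to 18.8 FPKM (1 lower, Sox9, and 1 lower and 1 higher with the scale factor), again with control 4 the highest. In the other lists control 4 was not the extreme control. Counted from the highest of the 6 controls, it ranked 4 for Kupffer cell, 5 for endothelial and 2 for stellate cell markers. It ranked 3 for B and plasma cell markers and 3 for plasmacytoid dendritic cell markers. The part of these marker shifts in the values of the interferon-stimulated genes was not tested.

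At the level of single transcripts, 72 transcripts of the 37 genes were listed, 22 of them were called lower and 0 higher, beside 14.0% and 5.73% of the 29883 transcripts. Both transcripts of Zbp1 and 3 of the 4 of Irf7 were called lower. In 2 genes that were not called as a whole, a minor transcript was called lower, namely ENSMUST00000168280 of Igtp, with 5.48% of the FPKM of that gene (log2 fold change −0.997), and ENSMUST00000152914 of Ifi47, with 6.69% (log2 fold change −0.42). Irf1 had transcripts that went in opposite directions without passing the test. ENSMUST00000019043 averaged 6.77 FPKM in PZH mice and 2.80 FPKM in control mice (log2 fold change 1.42, limma adjusted p = 0.0674), and ENSMUST00000108922 averaged 1.17 and 2.97 FPKM (log2 fold change −0.62, limma adjusted p = 0.309). In 7 genes that were called lower as a whole (Ifit3, Oas1g, Oas2, Oasl1, Rtp4, Usp18 and Gbp7), no single transcript was called. Ifit3 and Oas1g have 1 listed transcript each, with the same log2 fold change as the gene (−0.83 and −0.32) and limma adjusted p-values of 0.0504 and 0.0518 over the larger number of transcripts.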

How the data were processed

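Liver RNA of 12 mice was measured by strand-specific RNA-seq. The authors trimmed the reads with Trimmomatic, aligned them with HISAT2 to GRCm38, assembled transcripts with StringTie on Ensembl 95 and deposited FPKM values per transcript. The sums of the deposited FPKM lay between 325302 and 370426 per mouse. Read counts were not used here, so depth is unknown and precision rests on the spread between mice. Each gene value is the sum over its protein-coding transcripts, which gave 14195 genes from 29883 transcripts (names from GENCODE M21, 7 transcripts without a match). The log2(FPKM + 1) values, the transform the authors also used on the deposited values, were fitted in limma 3.58.1 (R 4.3.3) without a filter or covariate, two-sided, with Benjamini-Hochberg adjustment over all genes. A fold change on this scale understates that of low genes. On simulated data of the same 14195 genes, 94% of 200 genes changed by 1 on the log2 scale were recovered and 5 unchanged genes were called. The 200 genes were drawn only from better expressed genes, so the 94% does not describe low members or smaller changes. Each gene was drawn independently, with no scale difference between the groups, so the 5 calls do not bound false calls in the real data. A two-sided exact permutation test stood beside single genes. Replicates are mice of a group as labelled, and equal replicate numbers did not pair mice. The members and lists were chosen with earlier results of these data known. Every member was described, with the range and median for each called member and for uncalled members of at least 5 FPKM or the most abundant of their role. From the other lists, the 8 largest called changes were named, with Ifnar1, Ifngr1 and Socs1, and 1 gene that the rule also names is not reported here. The median-ratio scale factor with control 4 left out, and the split of PZH 1 and PZH 3, were chosen after the data were seen. Promoter windows came from RefSeq (GRCm38.p6). The separate table of long non-coding transcripts was not used here.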

Additional observations from a re-analysis of the deposited data

Results flagged for a closer look

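The highest or lowest of the 6 mice of a group stood apart from the other 5 in 9 of the 74 groups examined, the 37 genes in 2 groups each. The rule was a gap to its neighbour, over the whole range of the group, above Dixon's 95% critical value. This was computed on log2(FPKM + 1), and the values printed below are FPKM, on which the ratios differ. Chance alone would single out about 1 in 20 groups, and many of these genes were high in the same mouse, so the 9 cases are not independent. Of the 9, 6 were high values of control 4, at 19.1 FPKM for Zbp1, 3.56 FPKM for Oas2, 25.2 FPKM for Parp14, 17.2 FPKM for Rtp4, 29.6 FPKM for Ifi47 and 21.8 FPKM for Gbp2. In the PZH group, PZH 1 was high for Ifit1 at 4.25 FPKM and for Rtp4 at 7.41 FPKM, and PZH 3 was low for Oasl1 at 2.85 FPKM.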

How the results depend on the processing

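In place of 23 members, 29 were called lower with equal sums per mouse (Dhx58, Trim30a, Ifi27l2a, Igtp, Irgm2 and Ifi47 were added), 16 with the median-ratio scale factor, 20 without control 4 and 14, with 1 gene called higher and a median of −0.22, with that factor and without control 4. The criteria of the study, applied to gene values, gave 4 members, 2 pathway genes in place of 19 and 1 further interferon-inducible gene in place of 30. The scale factor gave 17 such further genes. Leaving out 1 mouse at a time gave 19 to 28 members called lower, 0 to 0 called higher, 17 to 20 pathway genes, 24 to 32 further genes and medians of −0.628 to −0.376, and 18 of the 23 calls were kept each time. The 5 calls lost at least once were those of Oas1g (without PZH 6), Oasl1 (without control 4), Oas2, Usp18 and Gbp7 (without several mice in turn). With the replicate number as a block, 22 members were called lower, with Usp18 (adjusted p = 0.0696) and Gbp7 (0.0828) lost and Bst2 (0.0480) gained. The correlation of same-numbered mice lay between −0.0731 and 0.0754, and 1 of 6 mice correlated best with its own number, so the numbers gave no pairing. Uncalled genes changed sign with the scale factor, where Ddx58 was 0.00118, Ifih1 0.0777 and Ifit2 0.0351, and with the scale factor without control 4, where they were 0.0117, 0.154 and 0.208, Bst2 0.0271 and Gbp3 0.00352. Ifit2 lay between −0.23 and 0.0629 with 1 mouse left out, the latter without control 4. In the most abundant transcript, Irf1 was −0.184 and Oas2 0.356, the latter against a called gene value. Except for the scale factor and the left-out mice, the cause of these shifts was not tested. Depth is unknown, and Mx1, Mx2 and Socs1 lay too low for firm values.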
